A study of Homo sapiens with 4 samples.

Results

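Semaphorins, plexins, SLIT and ROBO proteins, netrins, their receptors and FLRT proteins form the main families of axon guidance genes, and 50 of them were followed here in lung cancer cells. The members were the protein-coding rows whose GENCODE symbol belongs to the families SEMA3 to SEMA7, PLXNA to PLXND, SLIT, ROBO, NTN, UNC5 and FLRT, together with DCC and NEO1. They are 50 of 57820 rows in each count table, of which 19263 are protein-coding. The study compared TD cells with A549 cells, and each line gave 2 libraries. A549 is an established human non-small cell lung cancer line, and the parental cells are labelled epithelial. TD cells, labelled mesenchymal-like, are A549 cells kept in culture with the growth factor TGF-β, which was added at 2 ng/ml once in 3 days. Both lines grew in the same medium with 10% serum. The labels do not give the length of the treatment, a clone, or separate cultures behind the 2 libraries of a line, so a p-value here sets a difference against library-to-library spread alone, and that spread may be technical.

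Guidance proteins steer growing axons, but most of them also act in epithelia, vessels and tumours. Semaphorins are ligands, secreted or bound to the membrane, and plexins are their receptors, whose cytoplasmic part acts on small GTPases and so on the actin skeleton and integrin adhesion. Secreted class 3 semaphorins mostly need a neuropilin as co-receptor. SLIT proteins are secreted ligands of ROBO receptors, netrins bind DCC, neogenin (NEO1) and UNC5 receptors, and FLRT proteins are membrane proteins that bind UNC5 receptors and latrophilins on neighbouring cells.

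The libraries held 28237849 and 44133836 gene counts in TD cells, against 26729278 and 29381872 in A549 cells. All 8 mesenchymal markers were called higher in TD cells, and all 6 tested of 8 epithelial markers were called lower, while CLDN4 and GRHL2 had at most 1 count in any library. Summed over the list, epithelial markers came to 1727 to 2068 CPM (library-scaled counts) in TD cells and 15300 to 16100 CPM in A549 cells. The mesenchymal list came to 3381 to 3760 CPM in TD cells and 451 to 454 CPM in A549 cells. Because guidance genes also act in neurons and vessels, lists of markers for those cells were read beside them. The 12 neuronal markers summed to 62.5 to 89.5 CPM in TD cells and 60.9 to 65.4 CPM in A549 cells. STMN2 was at 0 in all libraries. GAP43, not tested, had 14 and 13 counts in the TD libraries and 0 in both A549 libraries. DCX, ELAVL3, ELAVL4, NEFM and SYN1 had at most 8 counts in any library. Of the 5 that passed the filter, TUBB3 was called higher, and the other 4, MAP2, RBFOX3, SNAP25 and SYP, were called lower. TUBB3 alone had 50.1 and 76.6 CPM in the TD libraries, against 27.2 and 25.4 CPM in the A549 libraries. The 7 endothelial markers summed to 1.43 to 1.51 CPM in TD cells and 0.168 to 0.502 CPM in A549 cells. ERG, the 1 that passed the filter, was called higher. KDR and TEK, not tested, had 22 counts each in TD cells and 0 in A549 cells. CDH5, CLDN5, TIE1 and VWF had at most 8 counts in any library. The part of the neuronal and endothelial genes in the results below was not tested.

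Many guidance genes stood at different levels in TD and A549 cells. Both higher and lower members were found among the class 3 semaphorins, plexins, netrins, netrin receptors and FLRT genes. The higher netrin was NTN1 and the higher netrin receptor UNC5A, and with either A549 library left out neither was called. SEMA3C, SEMA7A, SLIT3, ROBO1, FLRT2 and all 4 class A plexins rose, while SEMA3A, SEMA3B, SEMA3D, SEMA4G, PLXNB1, PLXNC1, NTN4, UNC5D and FLRT3 fell. Of the 50 members, 39 passed the filter on low counts, 13 were called higher and 11 lower in TD cells at an adjusted p below 0.05, and 15 were not called. Over all 17785 genes tested, 43.0% were called, with 21.6% higher and 21.4% lower. All genes include rows that are not protein-coding, whereas the members are protein-coding by rule. With protein-coding genes alone, 15 of the 39 tested members were called higher and 14 lower, beside 4205 and 4232 of 13208 genes. At least a 2-fold change was called for 10 members in each direction, 51.3% of those tested. Over all 17785 genes the share was 21.8%, with 9.49% higher and 12.3% lower, and it was not computed for protein-coding genes alone. A gene that passed the filter only through the line where it is high had to differ, so these member counts are a description. The median log2 change of TD over A549 was -0.03 over the tested members and -0.04 over all genes, and the median size of the change, without its sign, was 1.10 and 0.50. In bulk RNA, fewer cells of a type and less RNA per cell cannot be told apart.

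**Figure D1:**
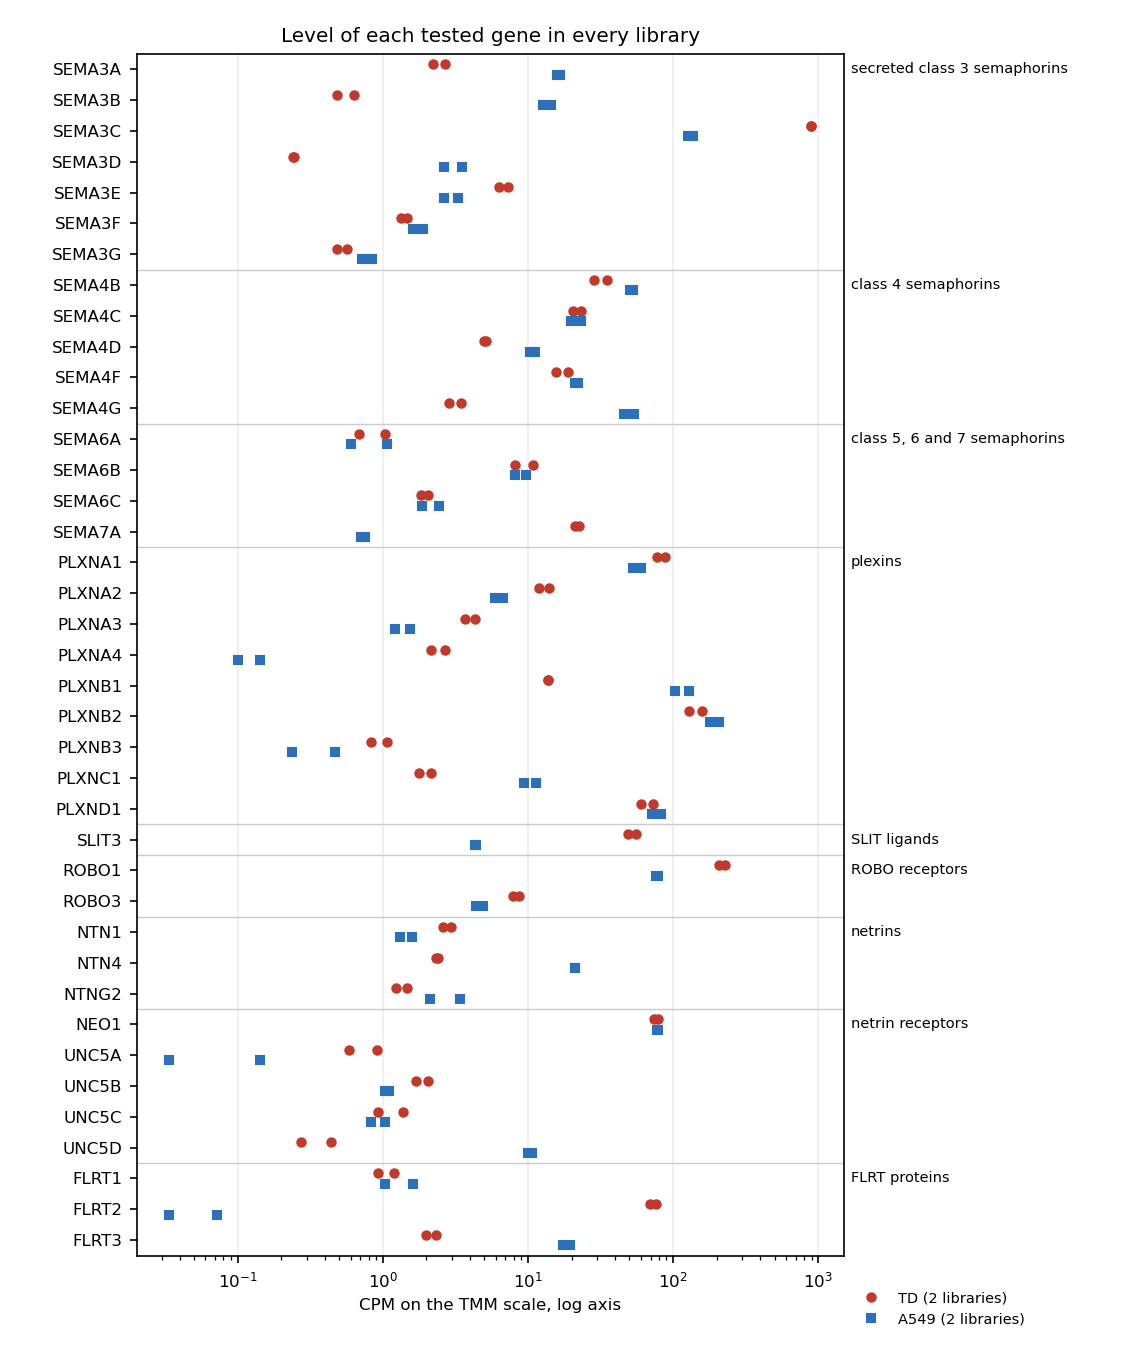
CPM of the 39 tested guidance genes in each library on a log axis, with TD libraries as circles above the A549 libraries as squares, ordered by family. SEMA3C in TD cells is the highest level of all, FLRT2 has the widest gap between the lines, and the NEO1 libraries of both lines overlap.

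**Figure D2:**
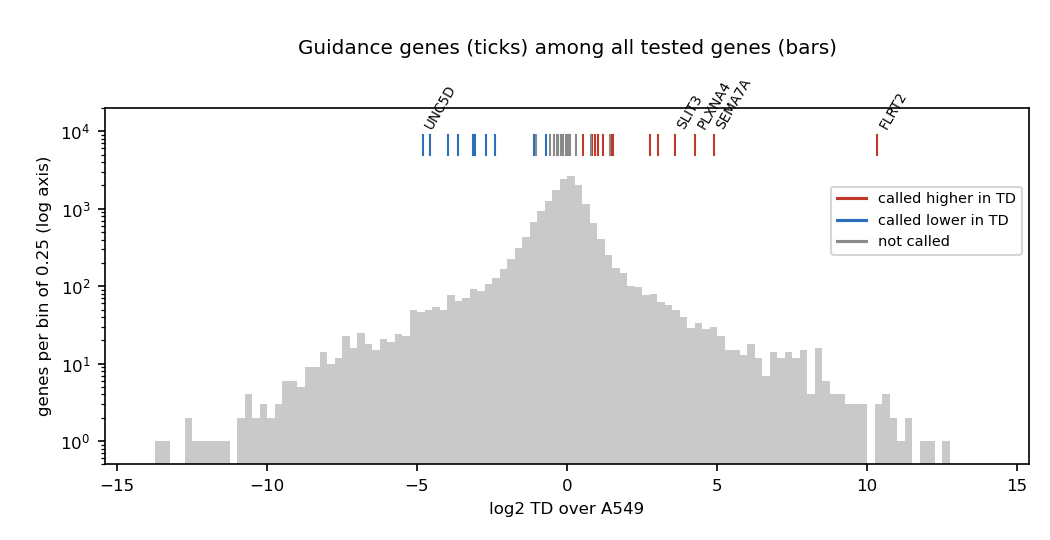
Log2 change of TD over A549 for all 17785 tested genes as bars on a log count axis, with the 39 tested guidance genes as ticks coloured by call. FLRT2 lies far to the right of the other members, and UNC5D lies lowest at -4.81.

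Class 3 semaphorins are the secreted members of the family. Of the 7, all tested, 2 rose and 3 fell. SEMA3C, a ligand known for its part in cardiac outflow and vessel patterning, had the highest level per kilobase (kb) of exon in TD cells, the FLRT genes left aside, and came second to PLXNB2 in A549 cells. It had 890.2 and 899 CPM in the TD libraries, against 128 and 138 CPM in the A549 libraries. The lines lay far apart and the fitted rise was 2.75 on the log2 scale (SE 0.09, adjusted p = 6.79e-05 by edgeR's quasi-likelihood test). SEMA3E, which binds plexin D1 without a neuropilin, had 7.30 and 6.36 CPM in TD cells, against 2.66 and 3.30 CPM in A549 cells. Its log2 change was 1.20 (SE 0.19, adjusted p = 0.00774), and with A549 replicate 1 left out the call was lost (adjusted p = 0.0682), so that 1 of the class, SEMA3C, was then called higher. Over its 16 alternatives the adjusted p lay between 6.50e-10 and 0.0682.

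The 3 class 3 genes that fell were 6.51-fold to 23.9-fold lower in TD cells. SEMA3A, the semaphorin that was first known for collapsing growth cones, had 2.24 and 2.703 CPM in TD cells, against 15.8 and 16.6 CPM in A549 cells (log2 change -2.703, SE 0.15, adjusted p = 0.000254). SEMA3B, a gene of the chromosome 3 region often lost in lung cancer, had 0.482 and 0.639 CPM in TD cells, against 14.5 and 12.8 CPM in A549 cells. Its log2 change was -4.58 (SE 0.20, adjusted p = 0.00014), the largest fall among the semaphorins. SEMA3D had 0.241 and 0.246 CPM in TD cells, against 2.66 and 3.54 CPM in A549 cells (log2 change -3.65, SE 0.31, adjusted p = 0.00101). For each of these 3 genes the TD libraries lay below both A549 libraries. SEMA3F and SEMA3G were not called, with means of 1.41 and 0.524 CPM in TD cells and of 1.75 and 0.78 CPM in A549 cells. An antisense gene to SEMA3F, SEMA3F-AS1, had 61 counts in TD cells and 65 in A549 cells, and since the strand setting of the counting is not given in the sources used here, reads of the pair cannot be told apart.

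SEMA3C made up most of the semaphorin RNA in TD cells. With each gene's CPM divided by its exon length in kb, SEMA3C made up 87.5% and 86.1% of the summed level of the 20 semaphorins in the TD libraries, against 37.5% and 41.3% in the A549 libraries. Within class 3 it made up 98.9% in both TD libraries, against 79.3% and 80.4% in A549. The summed semaphorin level was 162 and 167 CPM per kb in TD cells, against 54.3 and 53.3 CPM per kb in A549 cells. The second semaphorin by level was SEMA7A in TD cells and SEMA4G in A549 cells. These shares describe 2 libraries a line and were not tested.

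**Figure D3:**
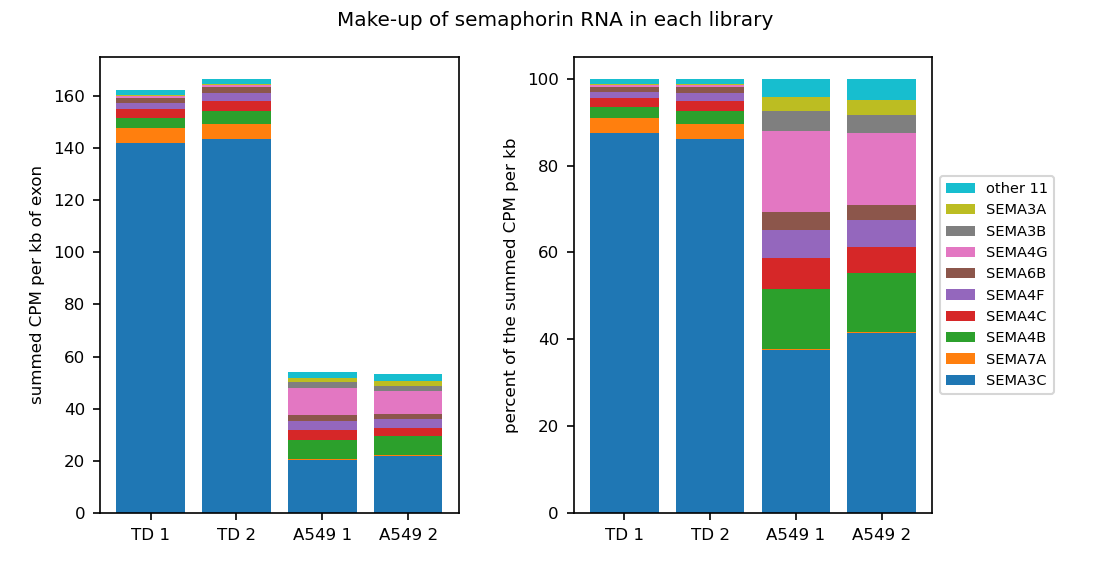
Level of each semaphorin per kb of exon, stacked by gene, for the 2 TD and the 2 A549 libraries, as summed CPM per kb on the left and as percent of that sum on the right. SEMA3C fills 87.5% and 86.1% of the TD bars and 37.5% and 41.3% of the A549 bars, where SEMA4G is the second largest piece.

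The neuropilins, co-receptors that bind class 3 semaphorins, were both called higher in TD cells, by less than 2-fold. NRP2 had 298 and 287 CPM in TD cells, against 193 and 190.5 CPM in A549 cells (log2 change 0.61, SE 0.07, adjusted p = 0.00324). NRP1 had 205.5 and 214 CPM in TD cells, against 164.5 and 167 CPM in A549 cells (log2 change 0.34, SE 0.07, adjusted p = 0.0188), a call that leaving out A549 replicate 1 or 2 removed (adjusted p = 0.0874 or 0.0681). Both genes were thus abundant in either line.

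Class 4 semaphorins are membrane proteins that mostly signal through B plexins. Of the 6, 5 were tested, 3 fell and none rose. SEMA4G had 2.86 and 3.47 CPM in TD cells, against 53.6 and 46.2 CPM in A549 cells (log2 change -3.97, SE 0.15, adjusted p = 8.39e-05). It was the highest class 4 gene per kb in both A549 libraries, where it held 39.6% and 37.6% of the class, and SEMA4B took that place in TD cells. SEMA4D, the ligand of plexin B1, had 4.99 and 5.14 CPM in TD cells, against 10.4 and 11.3 CPM in A549 cells (log2 change -1.10, SE 0.12, adjusted p = 0.00257). SEMA4B fell less, with means of 31.7 ± 4.78 CPM in TD cells and 51.5 ± 1.53 CPM in A549 cells (SD, n = 2 each), and its call was lost without A549 replicate 1 (adjusted p = 0.0545, against 0.00991 with all libraries). SEMA4C, a ligand of plexin B2, averaged 21.8 CPM in TD cells and 21.5 CPM in A549 cells and was not called, and its sign changed with the scaling. SEMA4F averaged 17.2 CPM in TD cells and 21.6 CPM in A549 cells. It was not called (adjusted p = 0.0787), but 7 of 16 alternatives called it lower, among them other scalings and other filters. The fit without TD replicate 2 was also among them, with a log2 change of -0.47 against -0.33 with all libraries. SEMA4A had at most 4 counts in a library and was not tested.

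SEMA7A stood apart from the other membrane semaphorins. It encodes a semaphorin held to the membrane by a lipid anchor, which binds plexin C1 and beta 1 integrins. It had 21.0 and 22.4 CPM in TD cells, against 0.754 and 0.707 CPM in A549 cells, with no overlap of the lines. The log2 change was 4.89 (SE 0.13, adjusted p = 4.38e-05), a 29.6-fold rise, and 1.36% of all tested genes had a larger one. Its receptors moved in opposite directions, since PLXNC1 fell, as described below, and ITGB1, the beta 1 integrin, had 2641 and 2595 CPM in TD cells, against 1289 and 1387 CPM in A549 cells (log2 change 0.97, SE 0.10, adjusted p = 0.00179). Of the 6 class 5 and class 6 genes, SEMA6A, SEMA6B and SEMA6C were tested and not called. SEMA6B averaged 9.51 CPM in TD cells and 8.92 CPM in A549 cells, SEMA6C averaged 1.95 CPM in TD cells and 2.15 CPM in A549 cells, and SEMA6A averaged 0.86 CPM in TD cells and 0.841 CPM in A549 cells. SEMA5A and SEMA5B had at most 4 counts in a library and SEMA6D had 0 in all 4, which allows up to 0.103 and 0.0737 CPM in the TD libraries and 0.108 and 0.101 CPM in the A549 libraries, for counting error only.

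Of the 9 plexins, 4 rose and 2 fell. The 4 that rose were the class A plexins, receptors that pair with neuropilins or bind class 6 semaphorins. PLXNA4 had 2.17 and 2.703 CPM in TD cells, against 0.144 and 0.101 CPM in A549 cells (log2 change 4.28, SE 0.36, adjusted p = 0.000999). PLXNA3 had 3.72 and 4.33 CPM in TD cells, against 1.54 and 1.21 CPM in A549 cells (log2 change 1.54, SE 0.24, adjusted p = 0.00648). PLXNA2 had 11.9 and 13.98 CPM in TD cells, against 5.92 and 6.73 CPM in A549 cells (log2 change 1.03, SE 0.14, adjusted p = 0.00488). In each of these 3 genes both TD libraries lay above both A549 libraries. PLXNA1, the most abundant of the class per kb, had means of 82.5 ± 6.95 CPM in TD cells and 56.7 ± 5.43 CPM in A549 cells (SD, n = 2 each). Its log2 change of 0.54 (SE 0.11, adjusted p = 0.0149) missed the threshold once A549 replicate 2 was left out (adjusted p = 0.0635). Per kb, the class summed to 8.40 and 9.54 CPM in TD cells, against 6.11 and 5.43 CPM in A549 cells, and PLXNA1 made up at least 83.8% of it in each library.

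Among the other plexins the falls were the larger changes. PLXNB1, the receptor of SEMA4D, had 13.7 and 13.9 CPM in TD cells, against 128 and 104 CPM in A549 cells (log2 change -3.07, SE 0.13, adjusted p = 0.000121). PLXNC1, the plexin that binds SEMA7A, had 1.79 and 2.14 CPM in TD cells, against 9.44 and 11.4 CPM in A549 cells (log2 change -2.41, SE 0.19, adjusted p = 0.000802). Neither gene's lines overlapped, so that for SEMA4D and PLXNB1 both ligand and receptor were lower in TD cells, and for SEMA7A and PLXNC1 the ligand was higher and the plexin lower. PLXNB2, the plexin with the highest level per kb in all 4 libraries, averaged 144 ± 19.97 CPM in TD cells and 194 ± 18.4 CPM in A549 cells. It missed the threshold (log2 change -0.43, adjusted p = 0.0515), but 13 of 16 alternatives called it lower and 3 did not. With all libraries kept, it was called lower by DESeq2 (adjusted p = 0.0172), by limma-voom (adjusted p = 0.0436) and with protein-coding genes alone (adjusted p = 0.00202), among others. Its log2 change was -0.29 without TD replicate 1 and -0.58 without TD replicate 2. PLXND1, a receptor of SEMA3E and SEMA3C, averaged 66.7 CPM in TD cells and 77.0 CPM in A549 cells, with overlapping libraries and no call (adjusted p = 0.268). Its log2 change was -0.21 with all libraries and -0.35 without TD replicate 2. PLXNB3 averaged 0.951 CPM in TD cells and 0.351 CPM in A549 cells and was not called (adjusted p = 0.064). With all libraries kept, it was called higher by limma-voom (adjusted p = 0.0485), with no filter (adjusted p = 0.0418) and with protein-coding genes alone (adjusted p = 0.00893). Each of these settings had 5 plexins higher and 3 lower. With pseudogenes removed, 5 plexins were called higher and 4 lower.

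**Figure D4:**
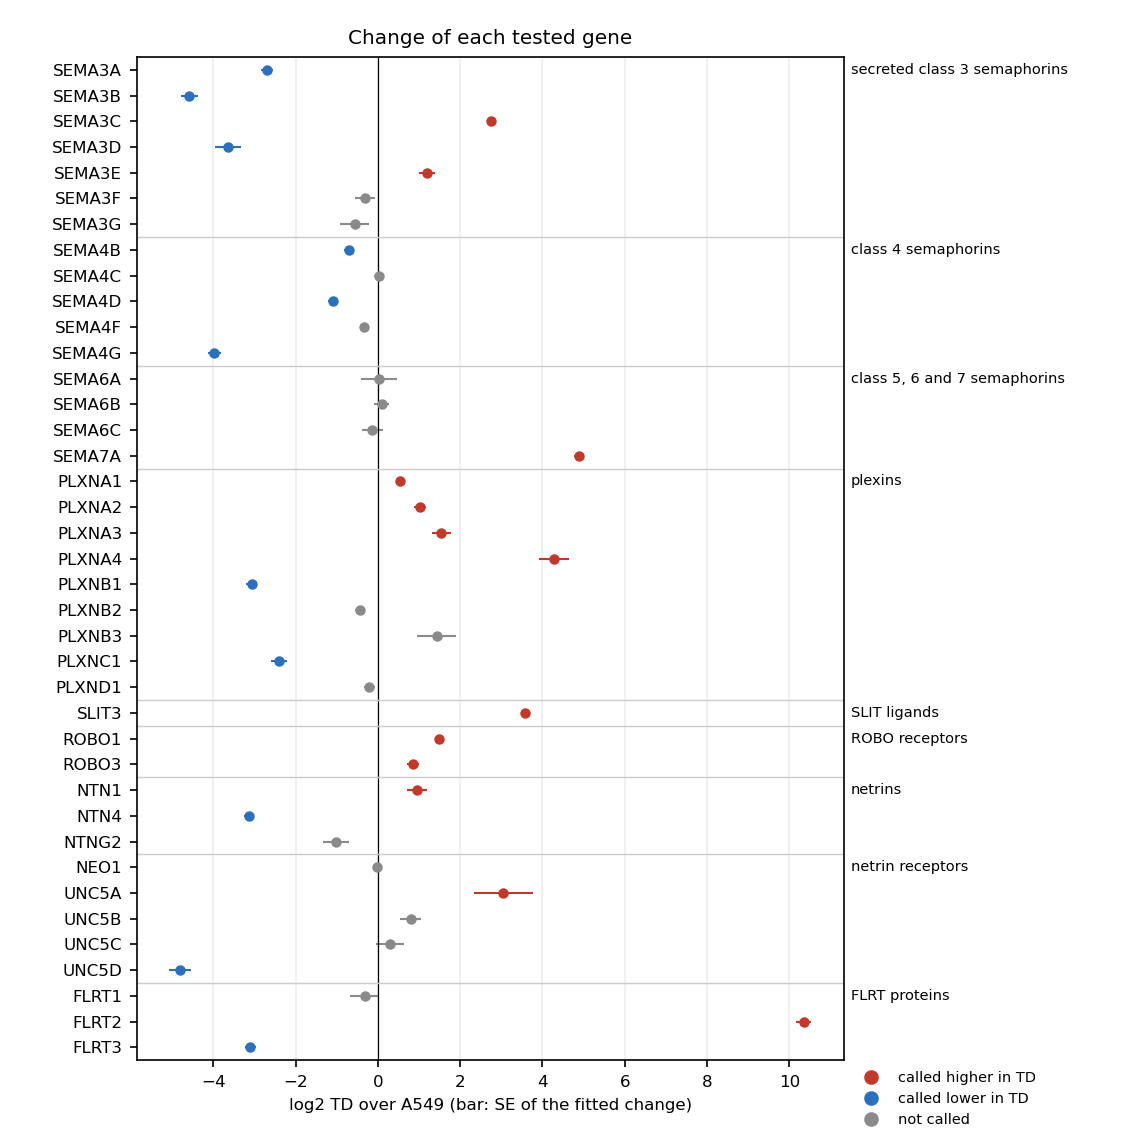
Fitted log2 change of TD over A549 for the 39 tested guidance genes, ordered by family, with bars for the SE and colours for the call. The 4 class A plexins lie right of 0, PLXNB1 and PLXNC1 lie left of it, and the netrin receptors lie on both sides.

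The windows around the annotated starts of PLXNB1 and PLXNC1 are printed here because they were the 2 windows of guidance genes changed at least 2-fold in which 1 of 3 searched motifs was found. Each holds 250 bases before and 50 bases after the gene start in RefSeq (GRCh38.p14), read 5′ to 3′ on the gene's strand. PLXNB1 lies on the minus strand at chr3:48430037-48430336, and the capitals mark an E-box (CAGGTG), the hexamer that SNAIL and ZEB repressors bind. PLXNC1 lies on the plus strand at chr12:94262369-94262668, and the capitals mark a match to the AP-1 motif TGANTCA.
PLXNB1: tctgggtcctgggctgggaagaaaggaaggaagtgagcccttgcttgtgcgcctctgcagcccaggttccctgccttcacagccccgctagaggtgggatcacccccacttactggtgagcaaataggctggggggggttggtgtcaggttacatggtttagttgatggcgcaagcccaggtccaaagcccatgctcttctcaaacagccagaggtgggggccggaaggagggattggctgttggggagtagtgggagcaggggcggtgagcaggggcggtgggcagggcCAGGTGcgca
PLXNC1: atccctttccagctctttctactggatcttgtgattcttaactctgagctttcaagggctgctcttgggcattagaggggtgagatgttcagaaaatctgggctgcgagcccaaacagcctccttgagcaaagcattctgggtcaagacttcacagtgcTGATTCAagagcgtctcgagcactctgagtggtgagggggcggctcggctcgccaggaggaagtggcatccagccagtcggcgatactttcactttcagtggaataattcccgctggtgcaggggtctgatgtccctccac
The E-box in PLXNB1 starts at base 41 after the gene start, and the AP-1 match in PLXNC1 starts 91 bases before it. CAGGTG was in 1 of 9 windows of members called lower, in 5 of 21 of members not called or not tested, and in 20.6% of all windows. TGANTCA was in 7.71% of all windows. A link of either match to the change of its gene was not tested.

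SLIT3 and ROBO1 rose together. SLIT3, a secreted ligand of ROBO receptors, had 49.3 and 55.9 CPM in TD cells, against 4.34 and 4.41 CPM in A549 cells (log2 change 3.59, SE 0.11, adjusted p = 5.48e-05). SLIT3 was the one SLIT gene detected above trace level, as SLIT1 and SLIT2 had at most 2 counts in any library. ROBO1, the main SLIT receptor of these cells by level, had 206 and 229 CPM in TD cells, against 78.2 and 76.7 CPM in A549 cells (log2 change 1.49, SE 0.09, adjusted p = 0.000319). For ligand and receptor alike the TD libraries lay above both A549 libraries. ROBO3, a divergent member of the receptor family, averaged 8.31 ± 0.553 CPM in TD cells and 4.63 ± 0.356 CPM in A549 cells (SD, n = 2 each). Its log2 change of 0.84 (SE 0.15, adjusted p = 0.00974) missed the threshold once A549 replicate 2 was left out (adjusted p = 0.061), which left ROBO1 as the 1 called receptor. ROBO1 made up 94.4% of the ROBO level per kb in both TD libraries, against 91.2% and 91.9% in A549. ROBO2, its neighbour on chromosome 3 with no protein-coding gene between them in RefSeq, had 0 counts in all 4 libraries.

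Netrins were led by NTN4 in A549 cells, and this gene fell. NTN4 encodes a netrin of basement membranes that binds laminin chains. It had 2.34 and 2.41 CPM in TD cells, against 21.0 and 21.0 CPM in A549 cells (log2 change -3.14, SE 0.11, adjusted p = 6.94e-05). Per kb it made up 44.4% and 43.0% of the netrin level in TD cells, against 82.4% and 88.9% in A549 cells. NTN1, the netrin best known as an axon attractant, averaged 2.78 ± 0.277 CPM in TD cells and 1.45 ± 0.188 CPM in A549 cells (SD, n = 2 each). Its log2 change of 0.94 (SE 0.24, adjusted p = 0.0316) missed the threshold with A549 replicate 1 or 2 left out (adjusted p = 0.101 or 0.148) and by DESeq2 (adjusted p = 0.11). NTNG2, a netrin with a lipid anchor, averaged 1.36 CPM in TD cells and 2.77 CPM in A549 cells and was not called (adjusted p = 0.0578). Its log2 change was -1.02 with all libraries, -0.89 without TD replicate 1 and -1.15 without TD replicate 2. Some settings that kept all libraries called it lower, among them no filter (adjusted p = 0.0303) and protein-coding genes alone (adjusted p = 0.00503). NTN3, NTN5 and NTNG1 had at most 22 counts in a library and were not tested.

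Of the netrin receptors, NEO1 was abundant in both lines and not called, while UNC5D was 28.1-fold lower in TD cells. NEO1 had 73.8 and 78.9 CPM in TD cells, against 77.3 and 78.8 CPM in A549 cells, and the log2 change was -0.03 with an SE of 0.07 (adjusted p = 0.765). UNC5D, a receptor of netrins and FLRT proteins on chromosome 8, had 0.275 and 0.442 CPM in TD cells, against 10.0 and 10.7 CPM in A549 cells (log2 change -4.81, SE 0.27, adjusted p = 0.000271). This was the largest fall among the tested guidance genes, and its share of the UNC5 level per kb had been 77.2% and 79.4% in A549 cells. UNC5A averaged 0.747 ± 0.229 CPM in TD cells and 0.0886 ± 0.0777 CPM in A549 cells (SD, n = 2 each), from 54 and 5 counts. Its log2 change of 3.05 (adjusted p = 0.0243) was 4.29 with A549 replicate 1 left out (adjusted p = 0.062) and 2.32 with replicate 2 left out (adjusted p = 0.12), neither of them called. UNC5B averaged 1.88 CPM in TD cells and 1.08 CPM in A549 cells and was not called (adjusted p = 0.064). It was called higher by limma-voom (adjusted p = 0.0481) and with protein-coding genes alone (adjusted p = 0.0123). Its log2 change was 0.80 with all libraries and 0.95 without TD replicate 1. UNC5C averaged 1.16 CPM in TD cells and 0.934 CPM in A549 cells and was not called. DCC, the classical netrin receptor, had 0 counts in TD cells and 2 in A549 cells.

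FLRT2 showed the largest change of all guidance genes. The FLRT genes encode leucine-rich repeat membrane proteins that act in cell adhesion and repulsion. FLRT2 had 2031 and 3096 counts in the TD libraries, against 2 and 1 in the A549 libraries, or 69.9 and 76.1 CPM against 0.0718 and 0.0337 CPM. By counts it was 1411-fold higher in TD cells, with a 95% exact interval of 482 to 6843 that covers counting error only (adjusted p = 3.08e-05). In size of fitted change it ranked 31 among the 17785 genes tested. FLRT3 moved the other way, with 2.00 and 2.33 CPM in TD cells, against 17.6 and 19.6 CPM in A549 cells (log2 change -3.10, SE 0.14, adjusted p = 0.000157). FLRT1 averaged 1.07 CPM in TD cells and 1.33 CPM in A549 cells, with overlapping libraries and no call (adjusted p = 0.518).

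Of the receptors that FLRT proteins bind, UNC5D, ADGRL2 and ADGRL3 fell and UNC5A rose, with the limits on its call given above. ADGRL1, ADGRL2 and ADGRL3 are the latrophilins, adhesion G protein-coupled receptors, which are named here although their values had been seen. ADGRL2 averaged 25.7 CPM in TD cells and 93.6 CPM in A549 cells (log2 change -1.87, adjusted p = 0.00025), and ADGRL3 averaged 0.101 CPM in TD cells and 1.11 CPM in A549 cells (log2 change -3.41, adjusted p = 0.00396). ADGRL1 averaged 8.40 CPM in TD cells and 9.80 CPM in A549 cells and was not called (adjusted p = 0.247).

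The windows of FLRT2 and SEMA3C are printed because they are the gene with the largest change and the gene with the highest level in TD cells. Both are in lower case throughout, since none of the 3 motifs was found in them. FLRT2 lies on the plus strand at chr14:85529894-85530193 and SEMA3C on the minus strand at chr7:80922340-80922639 (RefSeq, GRCh38.p14). They differ in base composition, with 59% G and C in FLRT2 and 36% in SEMA3C.
FLRT2: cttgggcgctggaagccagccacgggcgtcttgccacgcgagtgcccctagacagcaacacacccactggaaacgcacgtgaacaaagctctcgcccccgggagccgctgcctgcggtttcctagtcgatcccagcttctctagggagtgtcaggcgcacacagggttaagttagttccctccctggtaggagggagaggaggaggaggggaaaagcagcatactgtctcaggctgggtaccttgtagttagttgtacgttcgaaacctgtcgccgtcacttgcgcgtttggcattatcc
SEMA3C: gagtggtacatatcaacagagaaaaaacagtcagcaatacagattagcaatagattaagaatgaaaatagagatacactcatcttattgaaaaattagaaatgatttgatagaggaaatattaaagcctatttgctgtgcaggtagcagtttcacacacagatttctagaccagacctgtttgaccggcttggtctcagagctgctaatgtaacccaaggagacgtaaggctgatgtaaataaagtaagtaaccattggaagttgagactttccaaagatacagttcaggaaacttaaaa
A RefSeq window was found for 42 of the 50 members, all but NTN1, NTN3, NTNG2, SEMA3A, SEMA6A, SEMA6B, UNC5B and UNC5D. Both strands were searched. CAGGTG was in the windows of 0 of 12 members called higher, 1 of 9 called lower and 5 of the 21 others, against 20.6% of all 35116 windows. TGANTCA was in 0, 1 and 0 of them, against 7.71% of all windows. The palindrome GTCTAGAC, bound by SMAD proteins, was in none of the 42, against 0.202% of all windows. Median G and C content was 65.8% in the windows of members called higher and 57.7% in those called lower, against 58.7% over all windows.

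Several semaphorin genes are neighbours in the genome, and their calls were set side by side. On chromosome 7, SEMA3E, SEMA3A and SEMA3D follow each other in RefSeq with no protein-coding gene between them. SEMA3E rose, and SEMA3A and SEMA3D fell. SEMA3C precedes SEMA3E, with 3 protein-coding genes between them (HGF, CACNA2D1 and PCLO), and rose as well. On chromosome 3, SEMA3B fell and SEMA3F was not called, with GNAT1, SLC38A3 and GNAI2 between them. The difference between neighbours was not tested.

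Beyond the members, 81 further genes of these pathways were read, and 71 of them were tested. Of these, 34 rose and 20 fell, 76.1% of those tested against 43.0% of all genes, with a median log2 change of 0.34. The lists were chosen with earlier results of these data known. A gene that passed the filter only through the line where it is high had to differ. The counts of these lists are thus a description and cannot show that the pathways changed more than others. These further genes are all protein-coding, whereas all genes include rows that are not. With protein-coding genes alone, 36 of the further genes were called higher and 21 lower, beside 4205 and 4232 of all 13208 genes tested. Without A549 replicate 1 the number lower was 13, and without A549 replicate 2 it was 12. Among 23 receptors and co-receptors, 17 were tested, 7 rose and 8 fell. Without A549 replicate 1, 4 rose and 5 fell, and without A549 replicate 2, 4 fell. MCAM, an adhesion molecule of the immunoglobulin family, averaged 8.50 CPM in TD cells and 0.718 CPM in A549 cells (log2 change 3.56, adjusted p = 0.000928). ITGA1, a collagen-binding integrin chain, averaged 113 CPM in TD cells and 20.7 CPM in A549 cells (log2 change 2.45, adjusted p = 0.000196). DSCAML1, an adhesion molecule related to the netrin receptor DSCAM, had 1 count in TD cells and 169 in A549 cells, 205-fold lower by counts (95% exact interval 36.3 to 8134). CHL1, a relative of L1CAM that binds SEMA3A complexes, averaged 0.145 CPM in TD cells and 3.69 CPM in A549 cells. Its call (log2 change -4.73, adjusted p = 0.00463) was removed by leaving out A549 replicate 1 or 2 (adjusted p = 0.0588 or 0.0627), and its log2 change was -6.12 without TD replicate 1 and -3.92 without TD replicate 2. ADORA2B, an adenosine receptor, averaged 2.26 CPM in TD cells and 25.97 CPM in A549 cells (log2 change -3.52, adjusted p = 5.29e-05). Of 4 other ligands, RGMA and RGMB, which bind neogenin, were tested and rose. RGMB averaged 20.8 CPM in TD cells and 10.7 CPM in A549 cells (log2 change 0.96, adjusted p = 0.00154). RGMA, named after its values were seen, averaged 0.927 CPM in TD cells and 0.173 CPM in A549 cells, and with either A549 library left out RGMB was the 1 called.

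Genes that carry the signal inside the cell made up the other lists. Of 24 genes downstream of plexins, 23 were tested, 11 rose and 6 fell, beside 21.6% higher and 21.4% lower over all genes. With protein-coding genes alone, 12 of this list were called higher and 6 lower, beside 4205 and 4232 of all 13208 genes tested. DPYSL3, a collapsin response mediator that binds the cytoskeleton, averaged 143 CPM in TD cells and 0.211 CPM in A549 cells (log2 change 9.39, SE 0.21, adjusted p = 3.20e-05). DPYSL5, of the same family, averaged 14.7 CPM in TD cells and 1.74 CPM in A549 cells. MICAL2, an enzyme that oxidises actin, averaged 219 CPM in TD cells and 38.5 CPM in A549 cells. RHOD, a small GTPase, averaged 0.43 CPM in TD cells and 15.2 CPM in A549 cells (log2 change -5.11, SE 0.25, adjusted p = 0.00017), and SH3BP1, a GTPase-activating protein, averaged 0.578 CPM in TD cells and 7.10 CPM in A549 cells. FES, a tyrosine kinase, averaged 0.342 CPM in TD cells and 1.36 CPM in A549 cells, a call (adjusted p = 0.0121) that leaving out A549 replicate 1 or 2 removed (adjusted p = 0.111 or 0.0917).

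Downstream of ROBO, DCC and UNC5, 30 genes were read, 29 were tested, 14 rose and 6 fell, against 21.6% of all genes called higher and 21.4% called lower. With protein-coding genes alone, 15 of this list were called higher and 7 lower, beside 4205 and 4232 of all 13208 genes tested. Without A549 replicate 1, 3 of this list were called lower. ABLIM3, an actin-binding protein related to a worm netrin pathway gene, averaged 124 CPM in TD cells and 0.519 CPM in A549 cells (log2 change 7.88, SE 0.14, adjusted p = 3.08e-05). Its relative ABLIM1 averaged 42.5 CPM in TD cells and 227 CPM in A549 cells (log2 change -2.42, SE 0.10, adjusted p = 0.000108), so that these relatives changed in opposite directions. PAK3, a kinase activated by small GTPases, averaged 5.96 CPM in TD cells and 0.172 CPM in A549 cells (log2 change 5.08). Its A549 level rested on 10 counts. Over 16 alternatives the log2 change lay between 4.60 and 5.72, the highest value being that without A549 replicate 2. MYO10, a motor of filopodia that carries DCC, averaged 859 CPM in TD cells and 124 CPM in A549 cells (log2 change 2.79, SE 0.08, adjusted p = 5.68e-05). DAPK1, a death-associated kinase that binds an UNC5 receptor, averaged 8.26 CPM in TD cells and 131 CPM in A549 cells (log2 change -3.99, SE 0.08, adjusted p = 3.08e-05). SRGAP3, a ROBO-binding GTPase regulator, averaged 0.329 CPM in TD cells and 1.76 CPM in A549 cells, a call (adjusted p = 0.00896) that leaving out A549 replicate 1 or 2 removed (adjusted p = 0.0845 or 0.0554).

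**Figure D5:**
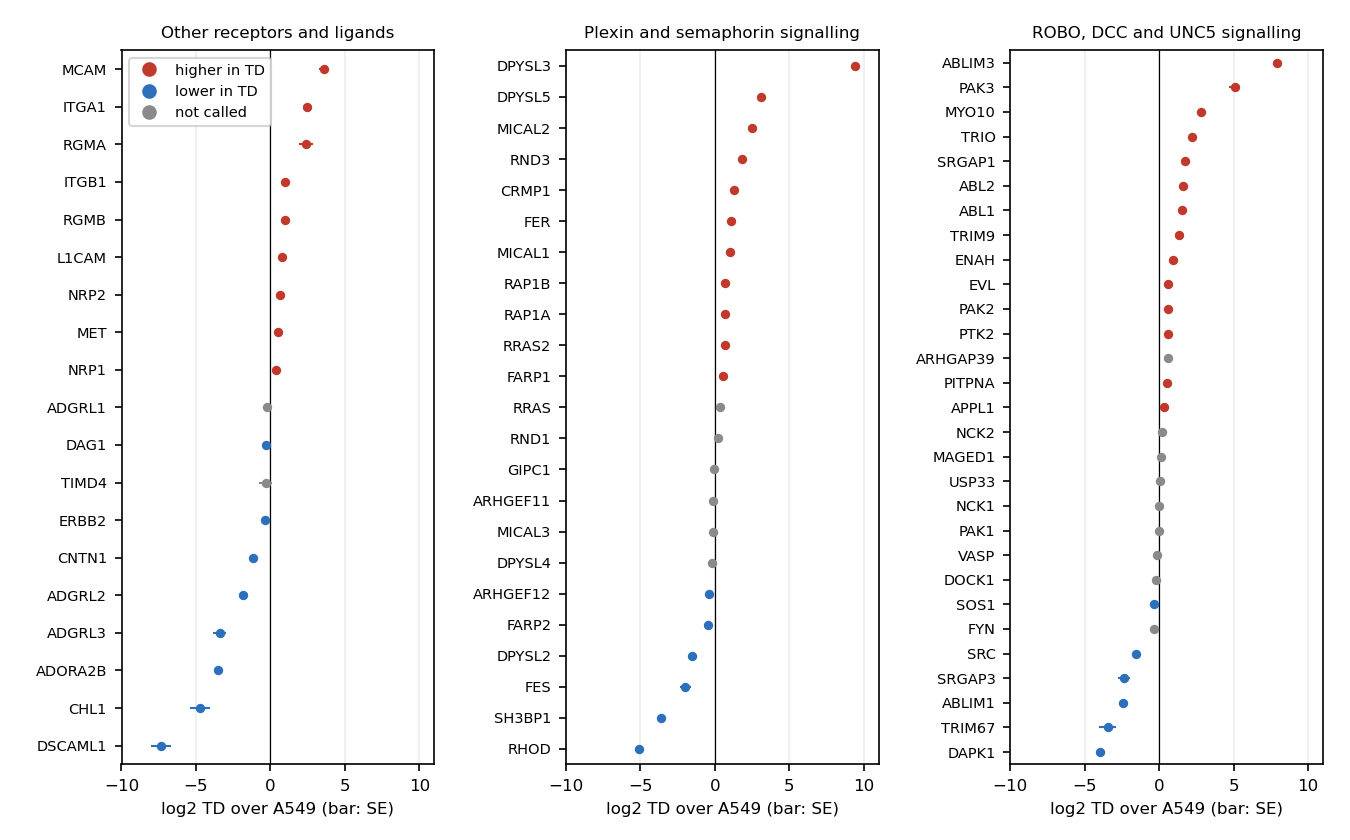
Fitted log2 change of TD over A549, with SE bars, for the 71 tested genes of the same pathways outside the guidance families, in 3 panels by role and sorted by change. DPYSL3 and ABLIM3 lie farthest right at 9.39 and 7.88, and DSCAML1 and RHOD lie farthest left.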

How the data were processed

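The authors deposited raw counts per gene, 1 table for each of the 4 libraries, from strand-specific polyadenylated RNA read from both ends for 75 bases. FastQC 0.11.8, STAR 2.7.1a and HTSeq 0.11.2 are named with build hg19, per the submitters' processing notes. The annotation used for counting is not given in the sources used here, nor is the strand setting. Reads given to no gene, 17.0% to 18.6% beside the counts of each library, were left out. Symbols came from GENCODE 29, which is on another build, so no coordinates of the counted genes are given. It paired 52338 of 57820 rows.

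TD was compared with A549 by edgeR 4.0.16 (quasi-likelihood test, TMM scaling, default filter with a minimum count of 10, R 4.3.3) over all genes, with Benjamini-Hochberg adjustment and a threshold of 0.05. The procedure was run on simulated counts with the same spread for every gene and both lines. That run cannot show how the calls hold at the spreads of these libraries. Levels are CPM on the TMM scale, ± is the SD of 2 libraries, and changes are log2 TD over A549 with the SE. With 1 to 3 counts in a line, the ratio of counts is given with a 95% exact interval. A count of 0 allows 3 counts. No 2 libraries held identical counts.

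The guidance genes and the lists were chosen with earlier results of these data known. Values in every library are printed for members called with at least a 2-fold change whose higher line averaged 1 CPM or more. Other pathway genes were named as the 3 largest called changes in each direction of each list with at least 1 CPM, with NRP1 and NRP2 in any case. SRGAP2, the neuronal marker NEFL and the endothelial marker PECAM1 were on the lists but were not analysed here. The list of blood markers is not reported here. Levels between genes were compared per kb of exon, without the FLRT genes. Alternatives covered scaling, DESeq2 1.42.0, limma-voom (limma 3.58.1), the filter, dispersion, thinning, the genes tested, a replicate block and each library left out.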

Additional observations from a re-analysis of the deposited data

How the results depend on the processing

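Of the guidance genes, 13 were called higher and 11 lower. With all libraries kept, 12 other settings gave 9 to 15 higher and 11 to 14 lower. With 1 library left out, 9 to 15 guidance genes were called higher and 10 to 15 lower, and 27 to 39 other pathway genes higher and 12 to 22 lower. Over all genes these settings gave 2114 to 5329 higher and 2236 to 6140 lower, against 3833 and 3809. The spread between libraries was 20.1% (coefficient of variation), 34.1% and 34.0% without A549 replicates 1 and 2, 7.08% without either TD library, 7.54% when only protein-coding genes were tested, and 7.90% after pseudogenes were removed, a setting chosen after seeing the data that called 15 guidance genes in each direction. With 1 library left out, the spread came from the libraries of the other line alone. A call gained without a TD library thus takes no account of the spread between TD libraries. The cause of the lost calls was not tested.

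The replicate numbers were not shown to pair the libraries, since the deviations of same-numbered libraries correlated at -0.08 over 17785 genes. With a replicate block, 10 guidance genes were called higher and 11 lower, and all 21 were among the 24 called without it. PLXNA1, NTN1 and UNC5A lost their call there (edgeR adjusted p = 0.0557, 0.0902 and 0.0914). The block gave 32 other pathway genes higher and 17 lower, and 2964 and 2847 over all genes.

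Among the tested guidance genes and the other genes named by rule, signs turned only for genes that were not called. The log2 change of SEMA4C, 0.02, was -0.0047 with upper-quartile scaling, -0.0612 with library totals, -0.0211 with the filter of 5 CPM, -0.0072 without the 20 most abundant genes, -0.0154 without pseudogenes, and -0.1193 to 0.1183 with 1 library left out. That of NEO1 was 0.0034 by DESeq2 and -0.0860 to 0.0266 with 1 library left out. That of SEMA6A, 0.03, was -0.0406 with library totals, -0.0108 with protein-coding genes alone, -0.0277 without pseudogenes, and -0.3441 to 0.4647 with 1 library left out. With 1 library left out, SEMA6B ranged from -0.1218 to 0.2928 and SEMA6C from -0.3493 to 0.0440.

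PLXNB2 was called lower in 13 of 16 alternatives, with log2 changes of -0.58 to -0.29. NTN1 lost its call in 4 of 15 alternatives, and UNC5A, with 5 counts in A549 cells, in 3 of 15.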
